A study of Mus musculus with 7 samples.

Results

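The genes described here encode the proteasome. They were taken as all genes whose symbol is Psm, a letter from a to g, a number and at most 1 further letter, and whose expected count exceeded 10 in 1 or more of the 7 libraries. Of 50686 genes in the deposited tables, 49 had such a symbol and 48 passed the count minimum. The gene that did not pass was Psmb11, which encodes a core subunit of the thymus cortex and had 0 to 4 counts per library. Of the 48 genes, 47 lie on autosomes and were tested, and Psmd10 lies on chromosome X and was tested only with that chromosome kept. The lowest count of any of the 48 genes was 143 (Psma8 in mouse 3posI), so no member depended on 1 age for passing the minimum.

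The libraries were made from microglia of 4 Young (3 to 4 months) and 3 Old (21 to 22 months) male C57BL/6 mice. All 7 mice had ischemia, by transient occlusion of the middle cerebral artery with a filament followed by reperfusion, so ischemia was shared by both groups and no sham-operated or untreated group was analysed here. Microglia were sorted 4 days later as CD11b+ CD45(low) cells that were also Bodipy+, a dye for the neutral lipid of lipid droplets, so microglia without droplets were not sampled in either age. Each library held the RNA of 1 mouse, and mice are named by the codes in the labels, 14C, 18C, 23C and 29C for Young and 2posI, 3posI and 4posI for Old. Libraries were prepared with Smart-seq2, a method for low input that copies polyadenylated RNA and does not keep the strand.

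The 26S proteasome degrades proteins that carry ubiquitin. Its 20S core is a barrel of outer alpha rings and inner beta rings, and the protease sites sit on the beta subunits Psmb5, Psmb6 and Psmb7. The 19S cap binds the substrate, removes the ubiquitin and unfolds the chain with a ring of ATPases. Interferons induce the alternative catalytic subunits Psmb8, Psmb9 and Psmb10, which replace Psmb5, Psmb6 and Psmb7 in newly made cores to form the immunoproteasome, and the PA28 activator made of Psme1 and Psme2. These forms are known for the supply of peptides to MHC class I, and immunoproteasome subunits are expressed in microglia and other immune cells.

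Total expected counts were 36574083 to 53002386 per library, and the 48 genes took 0.3917% to 0.6054% of them. The summed level of 12 microglia markers was 22500 to 34000 CPM (counts scaled to the size of each library) in Young and 25500 and 25800 CPM in Old mice 2posI and 4posI, but 11600 CPM in 3posI. The 8 markers of infiltrating monocytes and macrophages, all counted, summed to 55.1 to 224 CPM in Young, 197 CPM in 2posI, 169 CPM in 4posI and 2510 CPM in 3posI. In the other 2 Old mice some of these markers also exceeded every Young mouse, such as Ly6c2, a surface marker of inflammatory monocytes, with 15.3 CPM in 2posI and 9.59 CPM in 4posI against at most 2.86 CPM in Young. Without 3posI, 7 of the 8 markers had a positive log2 fold change, with a median log2 fold change of 0.88 instead of 3.13. Ccr2, the chemokine receptor of these monocytes, had 231 CPM in 3posI against at most 19.3 CPM in any other library. Mouse 3posI therefore stood apart, and results are given with and without it. None of the monocyte markers was at 0 in all libraries, and their part in the proteasome values was not tested. Neutrophil markers summed to 166 to 379 CPM in Young and 243 to 285 CPM in Old, B cell markers to 48.3 to 202 and 73.7 to 267 CPM, T and NK cell markers to 1.64 to 10.2 and 5.01 to 9.97 CPM, and dendritic cell markers to 5.79 to 8.24 and 6.48 to 51.7 CPM, the highest in 3posI. Of the 9 T and NK cell markers 7 had a positive log2 fold change, with a median of 3.32 and of 3.46 without 3posI. In 3 of them every Old mouse lay above every Young one, against 8.67% of all genes, and 0 passed the adjusted threshold in edgeR. Levels were low, with means of 4.34 CPM in Young and 5.75 CPM in Old for Cd4. The other T and NK cell markers had means of at most 0.609 CPM (Nkg7 in Old). Of the 6 B cell markers 1 was at 0 in all libraries. Oligodendrocyte, astrocyte, neuron and vascular markers each summed to at most 169 CPM in any library. The share of counts in ribosomal RNA genes was 3.52% to 4.24% in Young and 1.62% to 2.84% in Old, and its part in the values below was not tested.

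For the genes that the comparison turns on, stretches of the 250 bases before the RefSeq start sites were read from the GRCm38.p6 promoter table. They run 5′ to 3′ on the strand of the gene, and annotated exons were left out except in Psmb8. Capitals mark a match to the antioxidant response element, searched as TGACNNNGC on both strands, which is a binding site class of the factors that control constitutive proteasome genes, or to the gamma-activated site, searched as TTCNNNGAA and equal to its own reverse complement, an element of genes induced by interferon gamma. The interferon-stimulated response element was searched on both strands as GAAA, any 2 bases and GAAA again. No match below overlaps another. The first 2 sequences are constitutive catalytic genes, the next 3 are inducible genes and the last is the gene with the largest change. The stretch of Psmb8 lies inside the annotated gene, and its window is exonic throughout, so only the bases around the match are shown. The window of Psmb9, which faces Tap1, is also exonic throughout, holds no match and is not shown.
Psmb5, chr14:54618023-54618245, minus strand: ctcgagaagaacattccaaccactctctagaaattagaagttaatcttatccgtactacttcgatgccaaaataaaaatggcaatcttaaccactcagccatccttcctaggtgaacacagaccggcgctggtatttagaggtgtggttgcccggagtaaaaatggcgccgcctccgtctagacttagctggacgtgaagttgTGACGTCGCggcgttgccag
Psmb6, chr11:70525107-70525356, plus strand: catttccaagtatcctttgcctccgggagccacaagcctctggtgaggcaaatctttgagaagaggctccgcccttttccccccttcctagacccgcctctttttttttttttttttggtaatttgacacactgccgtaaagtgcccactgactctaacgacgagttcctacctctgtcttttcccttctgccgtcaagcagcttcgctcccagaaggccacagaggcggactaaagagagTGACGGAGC
Psmb8, chr17:34198087-34198116, plus strand: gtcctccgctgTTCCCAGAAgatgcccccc
Psmb10, chr8:105938445-105938642, minus strand: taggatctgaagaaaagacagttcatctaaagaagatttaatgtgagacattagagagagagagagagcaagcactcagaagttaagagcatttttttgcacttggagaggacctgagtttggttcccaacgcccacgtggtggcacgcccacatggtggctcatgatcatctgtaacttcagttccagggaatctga
Psme2, chr14:55591114-55591351, minus strand: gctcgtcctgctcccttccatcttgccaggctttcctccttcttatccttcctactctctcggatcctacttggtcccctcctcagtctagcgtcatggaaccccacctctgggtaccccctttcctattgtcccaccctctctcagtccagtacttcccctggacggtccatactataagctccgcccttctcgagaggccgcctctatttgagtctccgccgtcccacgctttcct
Psme4, chr11:30771525-30771725, plus strand: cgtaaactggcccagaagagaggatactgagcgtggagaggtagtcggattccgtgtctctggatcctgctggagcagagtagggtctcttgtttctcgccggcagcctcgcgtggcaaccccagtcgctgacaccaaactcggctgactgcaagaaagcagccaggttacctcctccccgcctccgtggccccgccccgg

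The table held windows for 40 of the 48 genes. The TGACNNNGC match was present in the windows of 5 of them, Psmb5, Psmb6, Psmc6, Psmd9 and Psmd12, and in 10.2% of all 32851 windows. The TTCNNNGAA match was present in Psmb8 and Psmg1 and in 7.02% of all windows. The match to the interferon-stimulated response element was present in Psmb3, Psmd4 and Psmd9 and in 2.98% of all windows, and in none of the inducible genes with a window. A match describes letters in a window, and a window without one says nothing about a factor.

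Old and Young microglia were compared to ask whether age changed the transcript levels of proteasome genes after ischemia. Most proteasome genes had a higher mean in Old mice, by modest amounts, and 1 gene rose beyond the threshold. This was Psme4, which encodes the nuclear activator PA200 and rose 2.22-fold. Of the 47 genes tested, 43 had a positive log2 fold change, that is 91.5% against 48.8% of all 17559 genes tested, and the median log2 fold change was 0.34 against -0.01 over all genes. Psme4 was the 1 gene of 47 with an adjusted p under 0.05 (quasi-likelihood test of edgeR, with Benjamini-Hochberg adjustment across all genes), where 0.803% of all genes passed in either direction and 0.57% passed as higher in Old. At an unadjusted p under 0.05, 21 of the 47 genes were higher in Old and 0 lower, against a background of 10.1% of all genes higher. In 15 of the 47 genes the 3 Old libraries all exceeded the 4 Young ones in TMM-normalised CPM, against 8.67% of all genes. On this scale, which leaves out gene length, they were all lower in 0 genes, against 9.07%. DESeq2 called 7 of the 47 genes, all higher in Old, against 4.26% of all genes, and these were Psme4, Psme2, Psmb8, Psmb3, Psme1, Psmb10 and Psmb4.

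The size of the shift differed between the 3 Old mice. Relative to the mean of the Young mice, the median of the 47 genes on the log2 scale was 0.33 in 2posI, 0.52 in 3posI and 0.09 in 4posI, and -0.06 in 14C, -0.17 in 18C, 0.10 in 23C and 0.08 in 29C. Mouse 4posI lay between the upper 2 Young mice, and the other Old mice lay above all Young ones. Mouse 3posI had the highest level of all 7 mice in 36 genes and lay above every Young mouse in 43, and 4posI lay above every Young mouse in 16. In the Young group 18C had the lowest level of all 7 mice in 33 genes. The summed TPM (a transcript level that the authors scaled per length and per library) of the 48 genes was 5568.4 in 14C, 5293.9 in 18C, 6304.1 in 23C and 5971.1 in 29C, and 6639.6 in 2posI, 7829.0 in 3posI and 6558.5 in 4posI. On this scale the Old sums lay above the Young ones in every mouse, with a ratio of the means of 1.21.

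**Figure D1:**
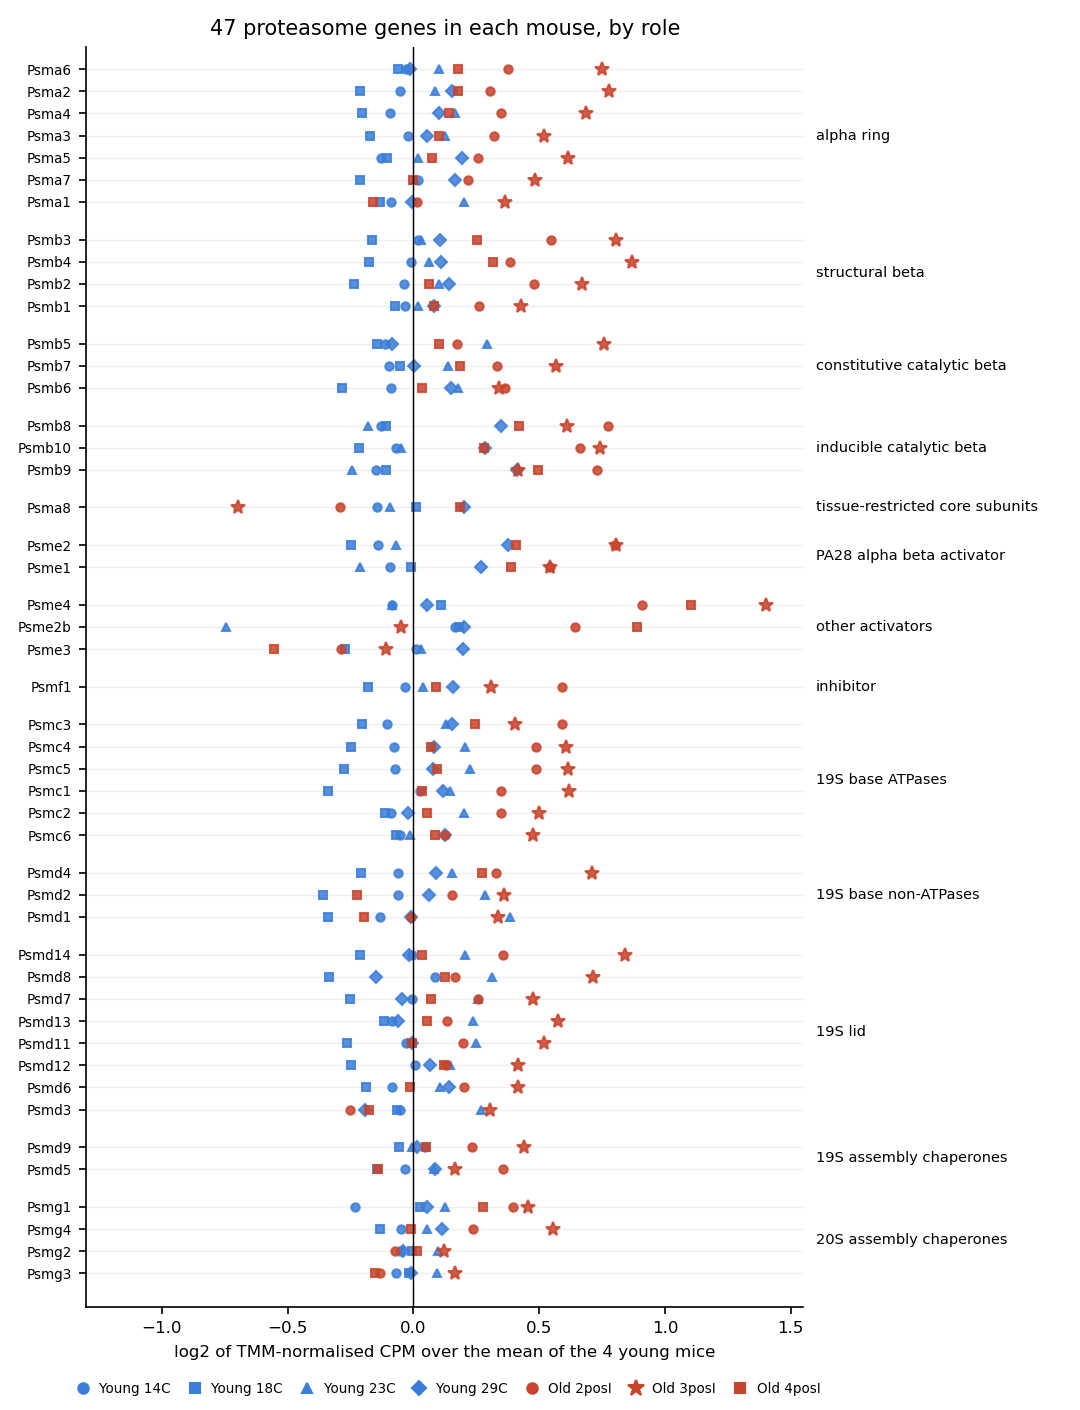
The 47 tested proteasome genes by role (rows), with the log2 of the TMM-normalised CPM of each mouse over the mean of the 4 Young mice on the horizontal axis. Blue symbols are Young mice, red symbols Old mice, and the star is 3posI, which has the highest level in 36 genes; Psme4 is the row in which the 3 Old mice lie farthest from the Young ones.

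Without 3posI, which leaves 7 of 8 monocyte markers higher in Old as given above, 39 of the 47 proteasome genes had a higher mean in Old (83.0%, against 48.1% of all genes), with a median of 0.20. Psme4 was again the only gene past the threshold, where 0.668% of all genes were called as higher. The genes higher at an unadjusted p under 0.05 numbered 12 instead of 21, against a background of 8.13%. The genes in which both remaining Old mice lay above every Young one numbered 16, against 13.8% of all genes. The part of the infiltrating cells in the difference between 21 and 12 genes was not tested, and in RNA of sorted cells in bulk a change in the number of cells of a type and a change in RNA per cell cannot be told apart.

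**Figure D2:**
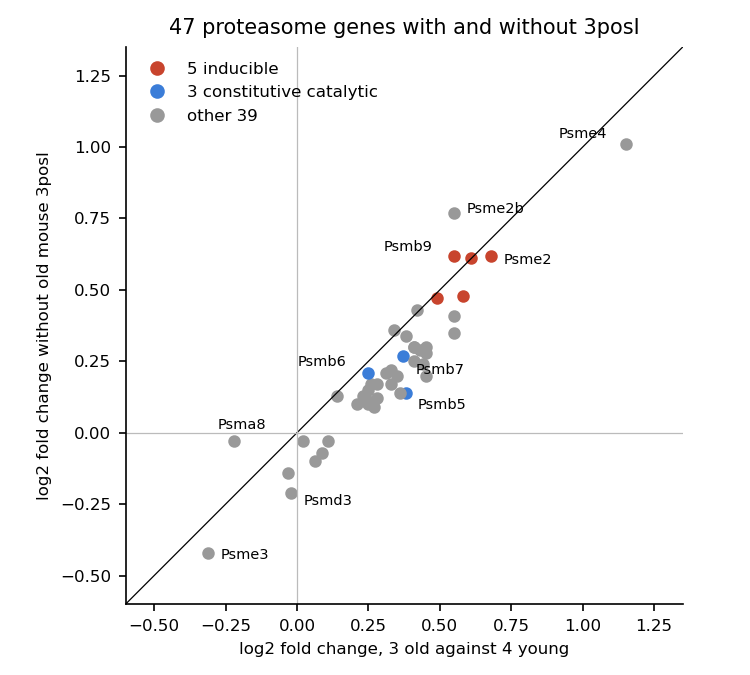
The log2 fold change of each of the 47 genes from all mice (horizontal) and without Old mouse 3posI (vertical), from edgeR, with the line of equal values. The 5 inducible genes (red) stay between 0.47 and 0.62 without 3posI, Psmb5 (blue) is at 0.14, and most other genes lie below the line.

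The 5 inducible genes were all higher in Old, with log2 fold changes of 0.49 to 0.68 and a median of 0.58. None passed the adjusted threshold in edgeR. In DESeq2 4 of the 5, all except Psmb9, passed it, with adjusted p of 0.0152 (Psme2) to 0.0313 (Psmb10). DESeq2 called 4.26% of all genes as higher in Old. In edgeR all 5 had an unadjusted p under 0.05, with 3posI and without it (10.1% and 8.13% of all genes), and their median without 3posI was 0.61. In 4 of the 5 genes, all except Psmb10, the Old and Young mice did not overlap in TMM-normalised CPM, against 8.67% of all genes. The same count of 4 was found without 3posI, against 13.8%. In TPM, which accounts for length, Psmb8, Psme1 and Psmb10 were apart, but Psmb9 and Psme2 overlapped. Psmb9 had 107.89 TPM in 29C and 104.02 TPM in 3posI, and Psme2 had 407.25 TPM in 29C and 387.53 TPM in 4posI. No share of all genes was taken in TPM. The levels below are TMM-normalised CPM, which scale each library but not gene length.

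Psmb8 (chr17:34197721-34201454) encodes LMP7, the inducible counterpart of Psmb5 with chymotrypsin-like activity. Its level was 206, 209, 199 and 287 CPM in the Young mice 14C, 18C, 23C and 29C, and 385, 344 and 301 CPM in the Old mice 2posI, 3posI and 4posI. All Old mice lay above all Young mice, and 29C stood above the other Young mice, close to the lowest Old one. The mean was 225 ± 41.5 CPM in Young (SD, n = 4) and 343 ± 42.0 CPM in Old (SD, n = 3), which gave a log2 fold change of 0.61 with an SE of 0.17 and an adjusted p of 0.123 in edgeR. DESeq2 gave an adjusted p of 0.0172. Psmb8 shares 498 exonic bases with Gm20496 on the opposite strand, and its expected counts were whole numbers in 5 of 7 libraries.

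Psmb9 (chr17:34181987-34187764) encodes LMP2, the inducible counterpart of Psmb6. It had 57.6, 59.2, 53.9 and 84.9 CPM in Young mice and 106, 85.2 and 90.0 CPM in Old mice, in the same order of mice. The groups did not overlap, but the Old mouse 3posI and the Young mouse 29C were nearly equal. The log2 fold change was 0.55 (SE 0.17, edgeR adjusted p = 0.155) and 0.62 without 3posI. Psmb9 shares 212 exonic bases with Tap1 on the opposite strand, and its expected counts were whole numbers in 0 of 7 libraries, as RSEM gives where it divides reads between genes. Tap1 itself, a subunit of the peptide transporter, had a log2 fold change of 0.02 (SE 0.18, edgeR adjusted p = 0.964).

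Psmb10 (chr8:105935735-105938444) encodes the inducible counterpart of Psmb7, with trypsin-like activity. Young mice had 71.7, 64.9, 72.8 and 91.8 CPM and Old mice 119, 126 and 91.4 CPM. The lowest Old mouse, 4posI, lay just under the highest Young mouse, 29C, so the groups overlapped. The log2 fold change was 0.58 (SE 0.16, edgeR adjusted p = 0.125) and 0.48 without 3posI.

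Psme1 (chr14:55578123-55581529) and Psme2 (chr14:55587441-55591113) encode the alpha and beta subunits of PA28, a cap that opens the core without ATP, and lie near each other on opposite strands, with Emc9 between them. Psme1 had 152, 161, 140 and 195 CPM in Young mice and 236, 236 and 212 CPM in Old mice. Psme2 had 123, 114, 129 and 176 CPM in Young mice and 236, 237 and 180 CPM in Old mice. In both genes the Old mice lay above all Young mice, with 29C the highest Young mouse and 4posI the lowest Old one. The log2 fold change was 0.49 (SE 0.14) for Psme1 and 0.68 (SE 0.18) for Psme2, with adjusted p of 0.130 and 0.112 in edgeR.

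Psme2b, a retrogene copy of Psme2 on chromosome 11, can share reads with it. It had 16.6, 16.8, 8.83 and 17.0 CPM in Young and 23.1, 14.3 and 27.4 CPM in Old mice, and the groups overlapped (log2 fold change 0.55, SE 0.28, edgeR adjusted p = 0.337). With the counts of Psme2 and Psme2b summed, an alternative chosen after the data were seen, the log2 fold change was 0.67. With the authors' effective length of each library as an offset, that of Psme2 was 0.48.

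**Figure D3:**
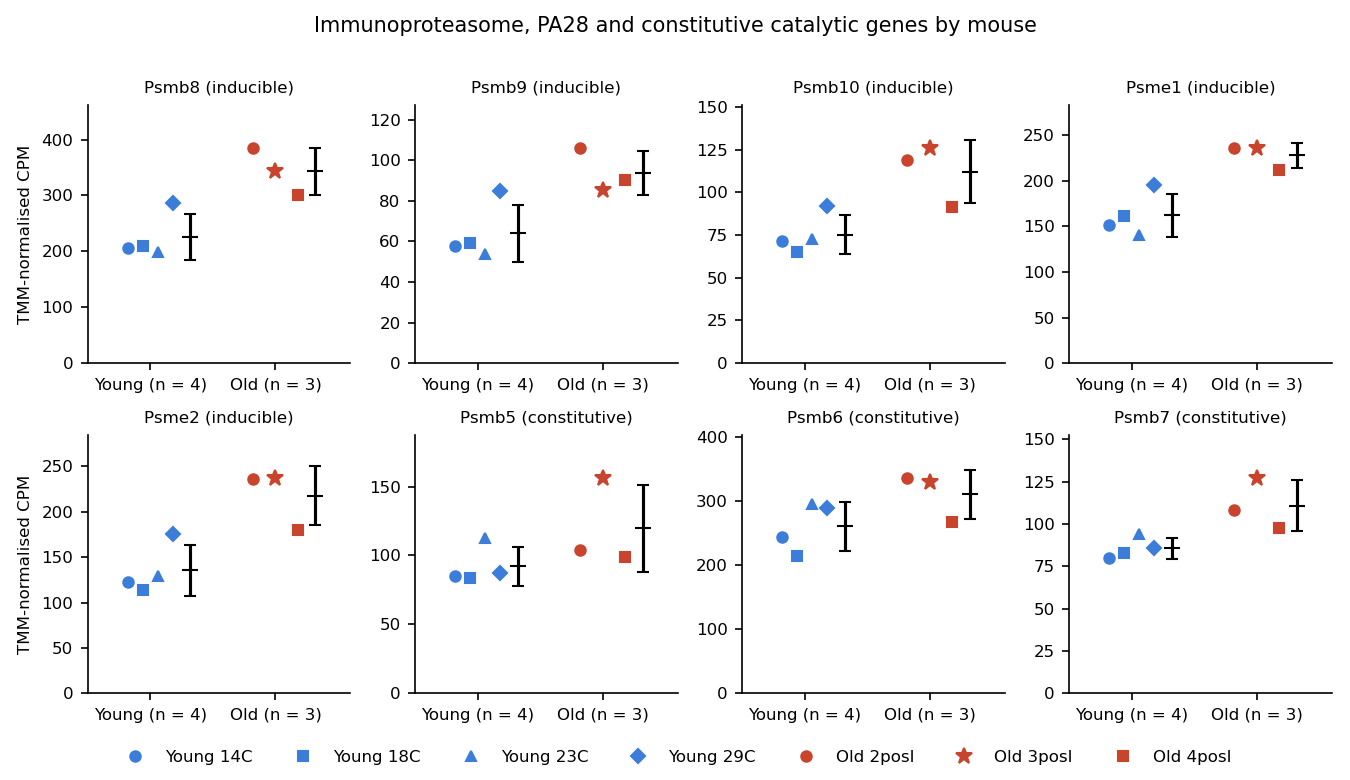
TMM-normalised CPM of the 5 inducible and the 3 constitutive catalytic genes in each of the 4 Young (blue) and 3 Old (red) mice, with the mean and SD of each group in black and the axes starting at 0. Young mouse 29C is the highest Young mouse in all 5 inducible genes, Young mouse 23C is the highest in all 3 constitutive genes, and Old mouse 3posI (star) is the highest of all mice in Psmb10, Psme2, Psmb5 and Psmb7.

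The 3 constitutive catalytic genes had smaller differences, with log2 fold changes of 0.25 to 0.38 and a median of 0.37, and none passed the adjusted threshold. Without 3posI their median was 0.21. Psmb5 (chr14:54614119-54618022), the chymotrypsin-like subunit, had 85.3, 83.4, 113 and 87.0 CPM in Young and 104, 156 and 98.9 CPM in Old mice. The groups overlapped through the Young mouse 23C, and 3posI stood far above every other mouse. The log2 fold change of Psmb5 was 0.38 (SE 0.19, edgeR adjusted p = 0.318) with 3posI and 0.14 without it.

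Psmb6 (chr11:70525367-70527858), the caspase-like subunit, had 245, 214, 295 and 289 CPM in Young and 336, 330 and 267 CPM in Old mice. The Old mouse 4posI lay below 2 Young mice, and the log2 fold change was 0.25 (SE 0.16, edgeR adjusted p = 0.419). Psmb7 (chr2:38588036-38644087), the trypsin-like subunit, had 80.1, 82.6, 94.3 and 85.9 CPM in Young and 108, 127 and 97.5 CPM in Old mice. It was the constitutive catalytic gene in which every Old mouse lay above every Young one (log2 fold change 0.37, SE 0.13, edgeR adjusted p = 0.171). Psmb7 shares 405 exonic bases with Nek6 on the opposite strand and its counts were whole in 0 of 7 libraries.

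To compare each inducible subunit with the one it replaces, the ratio of their TPM was taken within each library, which needs no scaling between libraries. Psmb8 was the more abundant transcript of its pair. It made up 64.0%, 64.4%, 57.2% and 70.8% of Psmb8 plus Psmb5 in the Young mice and 73.1%, 62.5% and 69.3% in the Old mice. The groups overlapped widely, with 29C above 2 of the Old mice and 3posI below 3 of the Young ones. The mean log2 ratio was 0.85 ± 0.35 in Young and 1.12 ± 0.36 in Old (SD), a difference of 0.27 with a p of 0.314 in a two-sided exact permutation test over all 35 splits of the 7 mice, and 0.314 after Benjamini-Hochberg adjustment over the 3 ratios.

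Psmb9 was the minor transcript of its pair, with a share of 13.7%, 16.7%, 11.6% and 17.6% in Young and 17.7%, 15.6% and 19.1% in Old mice. Here 2 Old mice lay above all Young mice and 3posI lay between them (difference in log2 ratio 0.29, exact permutation p = 0.229, adjusted 0.314). Psmb10 and Psmb7 were close to equal, with a Psmb10 share of 53.9%, 49.4%, 50.3% and 56.6% in Young and 57.1%, 55.9% and 52.9% in Old mice, which overlapped (difference 0.16, exact permutation p = 0.314, adjusted 0.314). The smallest p this design allows is 0.0286. In all 3 pairs the Old mean lay above the Young mean by less than the SD of the Young group.

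**Figure D4:**
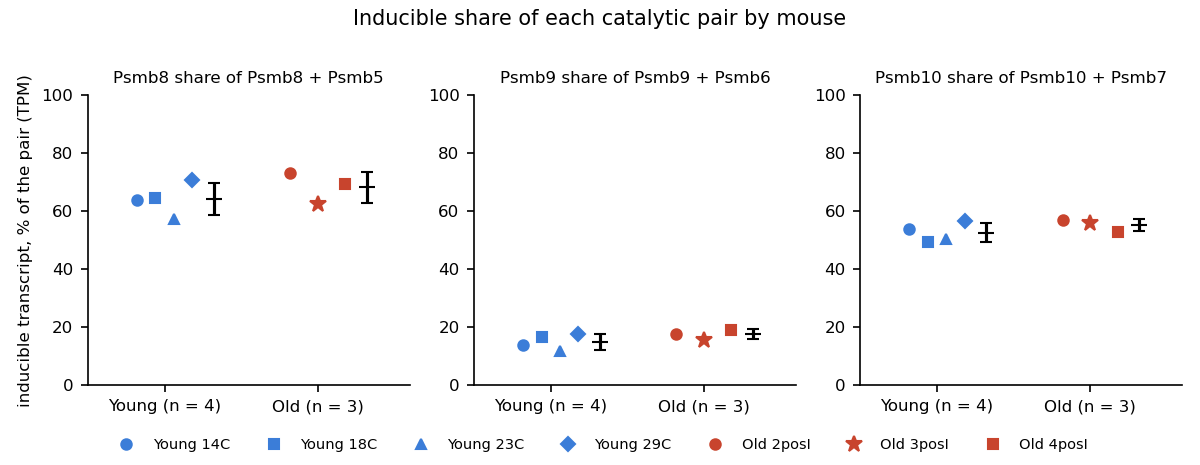
Share of the inducible transcript in each catalytic pair, as a percentage of the summed TPM of the pair, in each Young (blue) and Old (red) mouse, with the mean and SD in black and axes from 0 to 100. Psmb8 makes up 57.2% to 73.1% of its pair, Psmb9 11.6% to 19.1% and Psmb10 49.4% to 57.1%, and the ages overlap in each panel.

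Among the known regulators of the inducible genes, 0 of 7 tested genes passed the threshold, 3 were higher and 4 lower in Old, and the median log2 fold change was -0.13. The gene with the smallest p was Irf9, a transcription factor of the type I interferon response (0.25, SE 0.12, edgeR adjusted p = 0.304). Nlrc5, a transactivator of MHC class I genes, had 26.9, 18.3, 12.6 and 34.9 CPM in Young and 17.8, 38.4 and 29.5 CPM in Old mice, which overlapped. Among Young mice it was highest in 29C, the mouse that was also the highest Young one in all 5 inducible genes. Irf1, a transcription factor induced by interferon gamma, had a log2 fold change of -0.43 (SE 0.22, edgeR adjusted p = 0.337), with 84.8 CPM in 29C, the lowest of the Young mice.

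The 4 structural beta genes, Psmb1 to Psmb4, encode beta subunits without a protease site and were higher in Old by 0.26 to 0.55 on the log2 scale, with a median of 0.49. In 3 of the 4 the groups did not overlap, against 8.67% of all genes. Psmb3 (chr11:97703399-97713500) had 113, 99.7, 114 and 120 CPM in Young and 163, 195 and 133 CPM in Old mice. All Old mice lay above the tightly grouped Young mice, and the log2 fold change was 0.55 (SE 0.15, edgeR adjusted p = 0.116) and 0.41 without 3posI. Psmb4 had 118, 105, 124 and 128 CPM in Young and 155, 217 and 148 CPM in Old mice, with 3posI well above the other Old mice. For Psmb4 the value was 0.55 (SE 0.16, edgeR adjusted p = 0.132) and 0.35 without 3posI. Psmb1 had the smallest change of the group, 0.26 (SE 0.12, edgeR adjusted p = 0.286), and its groups were apart only by less than the rounding, with 158 CPM in both 29C and 4posI.

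The 7 alpha ring genes, Psma1 to Psma7, which form the gate of the core, were all higher in Old with a median of 0.33 and none passed the threshold. Psma6 had the largest value, with 76.3, 74.6, 83.7 and 77.1 CPM in Young and 101, 131 and 88.1 CPM in Old mice. The groups did not overlap, and the log2 fold change was 0.45 (SE 0.15, edgeR adjusted p = 0.160) with 3posI and 0.28 without it. Psma1 had the smallest, 0.09 (SE 0.16, edgeR adjusted p = 0.800), and -0.07 without 3posI. The median of the alpha ring without 3posI was 0.22. Psma8, an alpha subunit known from the testis, was counted at a low level of 2.82 to 5.82 TPM. It had 5.35, 5.95, 5.55 and 6.80 CPM in Young and 4.83, 3.65 and 6.72 CPM in Old mice, which overlapped (log2 fold change -0.22, SE 0.24, edgeR adjusted p = 0.657, and -0.03 without 3posI).

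Per length, the 14 core subunits other than the inducible ones and Psma8 had mean levels of 98.4 TPM (Psma5) to 509 TPM (Psmb6), a range of 5.17-fold, although they are present in equal numbers in an assembled constitutive core. The 17 subunits of the 19S cap measured on autosomes had 51.3 TPM (Psmd3) to 199 TPM (Psmd8). The inducible catalytic genes together reached 447 TPM in 14C, 451 TPM in 18C, 452 TPM in 23C, 574 TPM in 29C, 699 TPM in 2posI, 687 TPM in 3posI and 648 TPM in 4posI. Their sum had the largest ratio of Old to Young means of any role group, 1.41, followed by PA28 at 1.33 and the structural beta genes at 1.28. It did not overlap between ages, and no share of all genes was taken in TPM. The TPM sums of PA28, the structural beta genes, the inhibitor Psmf1 and the 19S chaperones Psmd5 and Psmd9 did not overlap either. The sum of the constitutive catalytic genes was 704, 664, 872 and 745 TPM in Young and 827, 947 and 807 TPM in Old mice, which overlapped through 23C, with a ratio of 1.15.

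**Figure D5:**
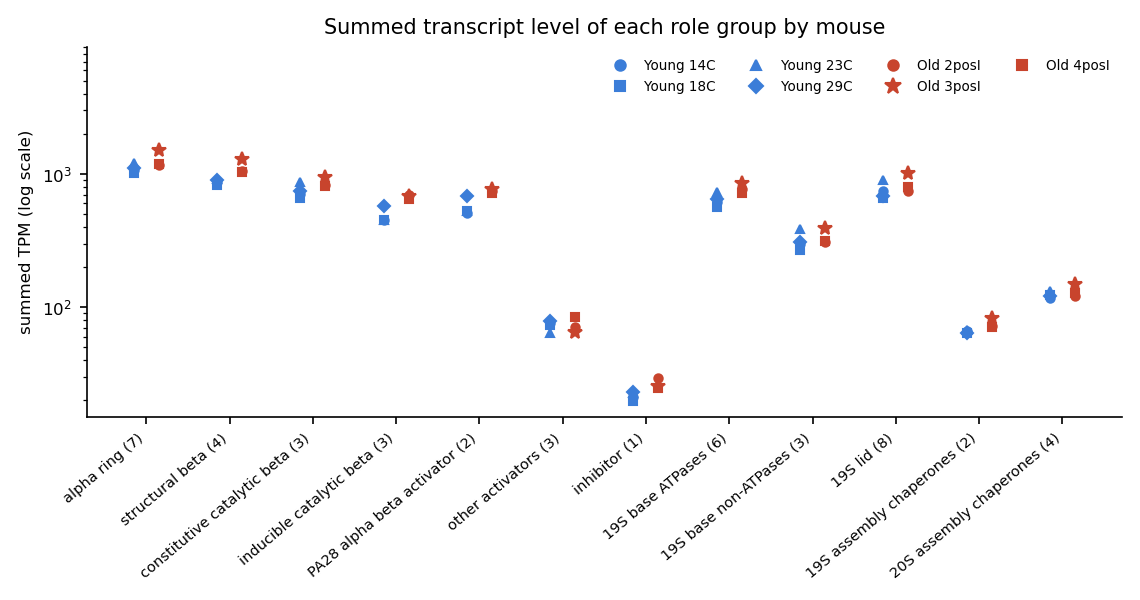
Summed TPM of each role group (number of genes in brackets) in each Young (blue) and Old (red) mouse on a log scale. The inducible catalytic and PA28 sums of the Old mice lie above all Young mice with little spread (648 to 699 and 718 to 768 TPM). The Old sums of the structural beta genes, the inhibitor and the 19S assembly chaperones also lie above all Young ones. In the alpha ring, the structural beta genes and the lid 3posI lies above the other Old mice.

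In the 19S cap, the 6 ATPases Psmc1 to Psmc6 of the base were higher in Old by 0.24 to 0.42 with a median of 0.38, and none passed the threshold. Psmc3 had the largest value, with 153, 143, 180 and 183 CPM in Young and 248, 218 and 195 CPM in Old mice. The groups did not overlap, 3posI was not the highest mouse here, and the log2 fold change was 0.42 (SE 0.14, edgeR adjusted p = 0.173) and 0.43 without 3posI. Its counts were whole in 0 of 7 libraries and it shares 215 exonic bases with Slc39a13 on the opposite strand. Psmc6 had the smallest value of the ring, 0.24 (SE 0.13, edgeR adjusted p = 0.349).

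Of the 3 other base subunits, the ubiquitin receptor Psmd4 was higher in Old, with 101, 91.1, 117 and 112 CPM in Young and 132, 172 and 127 CPM in Old mice, which did not overlap (log2 fold change 0.45, SE 0.15, edgeR adjusted p = 0.168). The scaffold subunit Psmd1 had 112, 97.1, 160 and 122 CPM in Young and 122, 155 and 107 CPM in Old mice. Its groups lay on top of each other, with the Young mouse 23C the highest of all (log2 fold change 0.06, SE 0.20, edgeR adjusted p = 0.891).

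The 8 lid genes ranged from -0.02 (Psmd3) to 0.45 (Psmd14), with a median of 0.26 and of 0.11 without 3posI, and in 0 of 8 did every Old mouse exceed every Young one, which over 8 genes is near the 8.67% of all genes. Psmd14, the deubiquitinase of the cap, had 64.5, 55.8, 74.5 and 64.0 CPM in Young and 82.7, 116 and 66.2 CPM in Old mice. Its Old values spread widely, 4posI lay among the Young mice, and the log2 fold change was 0.45 (SE 0.19, edgeR adjusted p = 0.255) with 3posI and 0.20 without it. Psmd3, a structural lid subunit, had 77.2, 76.5, 96.6 and 70.1 CPM in Young and 67.2, 98.9 and 70.8 CPM in Old mice, with overlap throughout (log2 fold change -0.02, SE 0.17, edgeR adjusted p = 0.961). Psmd13 is described by its Young mice, of which 23C had 101 CPM and the others 79.1 to 82.3 CPM, and its log2 fold change was 0.27 (SE 0.16, edgeR adjusted p = 0.388).

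The alternative activators had differences in both directions. Psme4 (chr11:30771726-30880361) encodes PA200, a large activator of the core without ATPase activity that is found in the nucleus. It had 13.9, 15.9, 13.9 and 15.3 CPM in Young mice and 27.7, 39 and 31.7 CPM in Old mice, from 644 to 711 counts per Young and 929 to 1526 counts per Old library. The Young mice differed little, and the lowest Old mouse, 2posI, lay well above the highest Young one. The mean was 14.8 ± 0.971 CPM in Young (SD, n = 4) and 32.8 ± 5.73 CPM in Old (SD, n = 3), for a log2 fold change of 1.15 (SE 0.15, edgeR adjusted p = 0.0236). Without 3posI it was 1.01 (edgeR adjusted p = 0.0245). The gene passed in all 12 fits with other tools, normalizations, filters and corrections, with adjusted p from 7.73e-09 to 0.0415 in those fits. Of these 12, 1 was the fit with Psme2 and Psme2b summed, which left the counts of Psme4 as they were and so says nothing further about it. When each library was left out in turn the log2 fold change was 1.01 to 1.26 and the adjusted p was 0.0245 to 0.108 in edgeR, with the gene past the threshold in 2 of 7 fits, those without 3posI and without 4posI. It was above the threshold without 14C (0.108), 18C (0.0821), 23C (0.0614), 29C (0.0646) and 2posI (0.0959).

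Per length Psme4 was among the lowest members, with 4.39, 4.87, 4.81 and 4.60 TPM in Young and 6.14, 9.72 and 9.78 TPM in Old mice. On this scale, for which no share of all genes was taken, the Old mice again lay above the Young ones, and 2posI lay nearest to them. With the authors' effective length as an offset, the log2 fold change was 0.95.

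Psme3 encodes PA28 gamma, a nuclear relative of Psme1 and Psme2, and had the lowest log2 fold change of all members. It had 63.4, 52.2, 64.3 and 72.2 CPM in Young mice and 51.6, 58.4 and 42.9 CPM in Old mice. The groups overlapped through 18C in CPM, and the log2 fold change was -0.31 (SE 0.15, edgeR adjusted p = 0.316) and -0.42 without 3posI. In TPM the groups did not overlap, with 37.51 to 46.11 TPM in Young and 24.55 to 32.02 TPM in Old mice. No share of all genes was taken in TPM. The effective length that enters the TPM of Psme3 was 2001.8 to 2116.9 bases in Young and 2200.5 to 2491.9 bases in Old mice. With the authors' effective length as an offset, the log2 fold change of Psme3 was -0.47, and it passed the threshold in no fit. Psmf1, the proteasome inhibitor PI31, had 25.5, 23.0, 26.8 and 29.1 CPM in Young and 39.3, 32.3 and 27.8 CPM in Old mice. The Old mouse 4posI lay below the Young mouse 29C, and the log2 fold change was 0.34 (SE 0.15, edgeR adjusted p = 0.261).

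The assembly chaperones had small differences. The 4 chaperones of the 20S core, Psmg1 to Psmg4, had a median of 0.15 and of 0.05 without 3posI. Psmg1 had the largest value, with 14.1, 16.9, 18.1 and 17.2 CPM in Young and 21.8, 22.7 and 20.1 CPM in Old mice, which did not overlap (log2 fold change 0.38, SE 0.13, edgeR adjusted p = 0.185). Psmg3 had 14.2, 14.7, 15.9 and 14.8 CPM in Young and 13.6, 16.7 and 13.4 CPM in Old mice, with the Old mice on both sides of the Young ones (log2 fold change -0.03, SE 0.14, edgeR adjusted p = 0.920). Of the chaperones of the 19S base, Psmd9 had a log2 fold change of 0.25 (SE 0.12, edgeR adjusted p = 0.308) and Psmd5 of 0.14 (SE 0.14, edgeR adjusted p = 0.618). Psmd10, the third of these and the gene on chromosome X, had 23.4, 23.2, 25.5 and 35.6 CPM in Young and 40.4, 35.4 and 29.0 CPM in Old mice when chromosome X was kept. Again 29C reached the level of the Old mice, and the log2 fold change was 0.37 (SE 0.19, edgeR adjusted p = 0.323).

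Genes that act with the proteasome but lack a Psm symbol were read from lists chosen by function. Counts past the threshold are those of edgeR, to which DESeq2 added Ddi2. Of 8 listed further subunits and assembly factors 5 were tested, and all 5 had a positive log2 fold change, with a median of 0.26 and 0 past the threshold. The assembly factor Pomp had the smallest p of these, with 151, 148, 136 and 188 CPM in Young and 245, 186 and 177 CPM in Old mice, which overlapped (0.38, SE 0.16, edgeR adjusted p = 0.259). Over all genes 0.803% passed in edgeR, in either direction. Of 4 genes of the p97 unfoldase, which extracts ubiquitin-tagged proteins before they reach the proteasome, 1 passed. This was Nploc4, a cofactor that binds ubiquitin chains, with 17.1, 14.3, 14.2 and 15.9 CPM in Young and 28.3, 32.9 and 29.0 CPM in Old mice. All Old mice lay far above the Young ones (log2 fold change 0.97, SE 0.13, edgeR adjusted p = 0.0252, and 0.90 without 3posI). Over all genes 8.67% had every Old mouse above every Young one. With each library left out in turn its adjusted p in edgeR was 0.0326 to 0.108, past the threshold in 2 of 7 fits, those without 3posI and without 4posI. The unfoldase p97 itself, Vcp, had a value of 0.07 (SE 0.16, edgeR adjusted p = 0.848).

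Of 11 deubiquitinases, ligases and shuttle factors that bind the proteasome, 4 had a higher and 7 a lower mean in Old, with a median of -0.16 and 0 past the threshold in edgeR. Ddi2, a protease that processes Nfe2l1, had the smallest p, with 108, 105, 102 and 102 CPM in Young and 69.9, 79.6 and 79.2 CPM in Old mice. Every Old mouse lay below every Young one, with a log2 fold change of -0.45 (SE 0.10, edgeR adjusted p = 0.0839), and DESeq2 gave an adjusted p of 0.00167. Such a separation was found in 3 of the 11 genes, against 9.07% of all genes. The 6 genes for the control of constitutive proteasome genes had a median of -0.18 with 1 higher and 5 lower in Old, and 0 passed. Nfe2l1, the factor that raises proteasome genes when the proteasome is inhibited, had 59.3, 61.6, 53.1 and 52.9 CPM in Young and 45.3, 49.7 and 50.1 CPM in Old mice. The Old mice lay below the Young ones, as in 1 of these 6 genes and 9.07% of all genes, with a log2 fold change of -0.23 (SE 0.11, edgeR adjusted p = 0.303).

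The 4 ubiquitin genes split evenly, with a median of 0.06, and Ubb had the smallest p (0.39, SE 0.19, edgeR adjusted p = 0.304). Of 11 genes for the transport, trimming and loading of the peptides that proteasomes make, 9 had a positive log2 fold change, with a median of 0.10 and 0 past the threshold. H2-D1, a class I heavy chain with near-identical relatives that can share reads, had the smallest p, with 1940, 2410, 1880 and 2860 CPM in Young and 3470, 3320 and 2690 CPM in Old mice. The Young mouse 29C lay above the Old mouse 4posI, as in Psmb10, and the log2 fold change was 0.47 (SE 0.20, edgeR adjusted p = 0.254).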

How the data were processed

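RNA of sorted Bodipy+ microglia was sequenced from 4 Young and 3 Old mice, 1 library each. Per the labels and methods, the authors checked reads with FastQC 0.11.5, removed adapters with skewer and used STAR on the GRCm38 genome, then RSEM with the GENCODE m15 annotation (no version of these 2 was found in the sources used here). The labels name a PureLink kit for the RNA and the methods PicoPure. The authors deposited expected counts, which are estimated and not normalized, beside TPM and FPKM values scaled within each library, and each gene's effective length. Expected counts of 26 of the 47 tested members were whole (within 0.001) in all 7 libraries and those of 14 in none, which RSEM gives where it divides reads between genes. No molecular identifiers are named, so counts include PCR copies.

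Expected counts were rounded, and genes that exceeded an expected count of 10 in 1 or more libraries and lie outside X, Y and the mitochondrial genome were kept, as in the methods. Chromosomes and exons came from GENCODE vM21, in which 310 of the 50686 identifiers had no entry, 53 of them tested. Old and Young were compared with edgeR 4.0.16 in R 4.3.3 (TMM factors, quasi-likelihood test, age as the only term, Benjamini-Hochberg adjustment over 17559 genes, threshold 0.05). The edgeR test stood in for the limma-voom test of the methods, which was an alternative (limma 3.58.1), as were DESeq2 1.42.0 and other factors, filters and offsets, lowess trends with a span of 0.3, and each library left out in turn. Ratios of TPM were compared with exact permutation tests. The fits were tested on 1 set of simulated data. In it the share of false calls exceeded the threshold of 0.05 in edgeR and limma-voom and was larger still in DESeq2. The mean chi-square per gene between libraries showed no pair alike within counting noise. The biological coefficient of variation was 37.2%.

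The members, lists and rules for naming genes were chosen with earlier results of these data known. Named are the inducible and constitutive catalytic genes, members past the threshold, the 5 members with the smallest p in each direction (of the negative ones there are 4), the highest and lowest change of each role group, members set apart by a filter or low level and, of each list of related genes, those past the threshold and the one with the smallest p. Psmb4, Psmd13, Nlrc5, Irf1, Tap1 and Vcp were named after their values were seen. The values of 1 listed gene are not reported here.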

Additional observations from a re-analysis of the deposited data

Results flagged for a closer look

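In 4 genes 1 of the 4 Young mice lay far from the others, with a gap to its nearest neighbour, as a share of the range of the group, above Dixon's critical value for 4 samples. Chance alone gives such a gap in about 1 in 20 groups, or 2.55 of the 51 tested here. The share was 0.888 for Psmb8, in which 29C was high, 0.878 for Psmb5 and 0.857 for Psmd13, in which 23C was high, and 0.95 for Psme2b, in which 23C was low. The values of these mice are given with each gene above.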

How the results depend on the processing

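Of the 47 members, 41 had the sign of their log2 fold change as reported with each library left out, and 44 under the other tools, factors, filters, offsets and trends. The number of genes called over all genes, 141, was 1403 with DESeq2, 318 with limma-voom and sample quality weights and 288 without a filter on low counts. It was 1 to 159 when each library was left out in turn, the lowest without 14C, 18C or 2posI and the highest without 3posI, and 14 without 23C, 2 without 29C and 85 without 4posI. Proteasome members called were 7 with DESeq2 instead of 1, adding Psme2, Psmb8, Psmb3, Psme1, Psmb10 and Psmb4, and 0 to 1 with libraries left out, which was Psme4 without 3posI or 4posI and 0 otherwise. Members higher in Old were 39 to 45 of 47 with libraries left out. The median of the 3 constitutive genes was 0.21 to 0.45 with libraries left out, the lowest without 3posI. Psmd3 turned to 0.07 with the gene-length trend and 0.09 with the GC trend removed, and Psmg3 to 0.00 with the gene-length trend removed. With libraries left out, Psmd3 ranged from -0.21 to 0.08, Psmg3 from -0.14 to 0.02, Psmd1 from -0.10 to 0.22, Psma1 from -0.07 to 0.19, Psmd2 from -0.03 to 0.25 and Psmg2 from -0.03 to 0.07. Psmg2 was also at -0.03 with the gene-length trend removed. Among related genes, Vcp ranged from -0.06 to 0.16 and Tap1 from -0.08 to 0.18 with libraries left out, and DESeq2 called Ddi2. The cause of these changes was not tested. No paired analysis was possible because the labels give no number or batch shared between Young and Old mice. The sum of Psme2 and Psme2b and the counts of separated groups without 3posI were alternatives chosen after seeing the data. The lowest counts of any tested member were those of Psma8, 143 to 316, and the largest SE was that of Psme2b, 0.28.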
